A study of Saccharomyces cerevisiae with 12 samples.

Results

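FAA1, FAA2, FAA3 and FAA4 are the yeast genes for long-chain acyl-CoA synthetases, and they were followed here through ribosome profiling of budding yeast that depended on either of a pair of related RNA helicases. The 4 genes were taken by family name (FAA1 is YOR317W, FAA2 is YER015W, FAA3 is YIL009W and FAA4 is YMR246W), and they are 4 of the 6159 genes in the deposited table. The family was chosen on a measured value, the level of FAA1, which stood higher in the Dbp1 strain than in the Ded1 strain. All values of the 4 genes in Dbp1 against Ded1 are therefore given as a description, without a test. The same holds for FAA1 levels in the other comparisons, since each shares libraries with the one that chose the family.

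An acyl-CoA synthetase joins a fatty acid to coenzyme A at the cost of ATP, and only the activated fatty acid can enter membrane and storage lipids, protein acylation or β-oxidation. In Saccharomyces cerevisiae, Faa1 and Faa4 carry out most of the activation of long-chain fatty acids taken up from the medium. Faa4 also contributes to the myristoyl-CoA used for protein N-myristoylation. Faa2 is a peroxisomal enzyme that activates medium-chain fatty acids ahead of β-oxidation, and Faa3 acts on long and very long chains. Growth on glucose with fatty acid synthesis intact does not require any single member.

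The strains were of the SK1 background, a laboratory strain that sporulates efficiently, and all cultures were harvested from YEPD at 30 °C at an optical density of 0.6, after 100 µM cycloheximide for 1 minute. The Ded1 strain carried DED1 under its own regulatory regions. The Dbp1 strain carried DBP1, the gene of the related helicase, under the DED1 regulatory regions, and the 2xDbp1 strain carried 4 copies of that construct. The labels mark these 2 strains 1x and 2x, and no copy number is listed for the Dbp1 strain. Each genotype had 2 poly(A) mRNA libraries and 2 footprint libraries of ribosome-protected fragments, 12 in all. The labels do not say whether replicates came from separate cultures, so p-values measure the spread between these samples only, which may be technical. The sources used here do not give ploidy or mating type.

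RPKM values are reads per kilobase of gene at equal library depth. In Ded1, Dbp1 and 2xDbp1, DED1 mRNA averaged 62.2, 2.77 and 1.84 RPKM, while DBP1 mRNA averaged 4.69, 102.4 and 154.4 RPKM, each over n = 2. Those levels followed the genotype labels in every library. The steps of the deposited values put the mRNA libraries at 5.997 to 8.497 M reads and the footprint libraries at 8.70 to 13.11 M, a depth inferred from the values. The summed mRNA of 11 meiotic genes spanned 36.4 to 49.5 RPKM for Ded1, 38.5 to 55.02 for Dbp1 and 43.6 to 60.4 for 2xDbp1. Summed markers of haploid a cells spanned 15.5 to 24.4 RPKM over the same libraries, and those of alpha cells 4.81 to 8.32 RPKM. The pheromone genes MFA1, MFA2, MF(ALPHA)1 and MF(ALPHA)2 were listed at 0 in at least 1 mRNA library, and MFA1 reached 5.62 RPKM in another. The other a and alpha markers were above 0 in every mRNA library. STE2 spanned 4.95 to 6.84 RPKM, STE6 5.77 to 7.45, BAR1 2.69 to 4.70, SAG1 3.70 to 4.47 and STE3 0.377 to 1.60. Summed markers of haploid cells of either type spanned 18.3 to 25.6 RPKM.

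FAA1 was the one member whose mRNA stood well above its Ded1 level in Dbp1. FAA1 mRNA was 77.3 and 120.6 RPKM in replicates 1 and 2 of Ded1, 322.5 and 237.8 RPKM in Dbp1, and 117.5 and 171.3 RPKM in 2xDbp1. Both Dbp1 libraries lay above all 4 others, and the Ded1 and 2xDbp1 libraries interleaved. The mean was 99.0 ± 30.6 RPKM for Ded1, 280.1 ± 59.9 for Dbp1 and 144.4 ± 38.0 for 2xDbp1 (SD, n = 2 each). These values rest on 1204 to 3952 reads per library.

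FAA1 footprints, the reads from ribosomes on its mRNA, had the same order of genotypes. Ded1 had 90.9 and 134.4 RPKM, Dbp1 395.5 and 285.7, and 2xDbp1 146.2 and 197.5. Here no genotype overlapped another: both 2xDbp1 libraries lay above both Ded1 libraries and below both Dbp1 libraries. The means were 112.7 ± 30.7, 340.6 ± 77.7 and 171.8 ± 36.3 RPKM (SD, n = 2 each). From lowest to highest library FAA1 spanned 4.17-fold in mRNA and 4.35-fold in footprints, where the median gene spanned 1.30-fold over 5192 genes and 1.28-fold over 4828.

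FAA1 also differed between replicates more than most genes did. Replicate 2 was the higher one in Ded1 and in 2xDbp1, and replicate 1 in Dbp1, in mRNA and footprints alike. In mRNA the absolute log2 difference between replicates was 0.64 in Ded1, 0.44 in Dbp1 and 0.54 in 2xDbp1, against medians over all tested genes of 0.113 to 0.136. Those 3 differences lay at percentiles 97.2, 91.5 and 97.3 of all tested genes. Footprint and mRNA libraries with the same replicate number deviated together, so the footprints are not a separate set of replicates.

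FAA4 mRNA was the second most abundant of the family in Dbp1 and had a narrow range. It was 157.5 and 138.7 RPKM in Ded1, 121.5 and 125.6 in Dbp1, and 134.5 and 139.4 in 2xDbp1. The 2 Dbp1 libraries were the lowest, and Ded1 and 2xDbp1 overlapped. FAA4 footprints were 317.5 and 291.1 RPKM in Ded1, 246.2 and 232.9 in Dbp1, and 295.1 and 283.1 in 2xDbp1, with Dbp1 again lowest. Its highest library exceeded its lowest by 1.30-fold in mRNA and 1.36-fold in footprints, close to the median gene.

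FAA3 was present at an intermediate level. Its mRNA was 84.7 and 68.1 RPKM in Ded1, 61.6 and 67.9 in Dbp1, and 75.6 and 70.3 in 2xDbp1. Both Dbp1 libraries lay below both Ded1 libraries, with 67.9 against 68.1 RPKM in the nearest ones, and both 2xDbp1 libraries fell between the Ded1 values. FAA3 footprints were 36.4 and 35.1 RPKM in Ded1, 29.3 and 29.6 in Dbp1, and 29.9 and 30.7 in 2xDbp1. Dbp1 and 2xDbp1 both lay below Ded1 in footprints, with Dbp1 the lower.

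FAA2, the peroxisomal member, was close to the limit of the measurement. Its mRNA was 6.75 and 4.22 RPKM in Ded1, 6.67 and 5.92 in Dbp1, and 8.27 and 6.39 in 2xDbp1, from 78 to 118 reads per library. Its footprints were 2.22 and 2.07 RPKM in Ded1, 2.98 and 1.92 in Dbp1, and 2.74 and 1.89 in 2xDbp1, from 42 to 69 reads. The genotypes overlapped in both library types. An exact Poisson 95% interval for the first Ded1 footprint library ran from 1.60 to 3.00 RPKM and one for the first Dbp1 library from 2.29 to 3.81 RPKM, and such intervals cover counting error only. FAA2 mRNA lay between percentiles 0.654 and 4.83 of the genes tested, and its footprints fell below the minimum mean of 5 RPKM used for the fits.

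**Figure D1:**
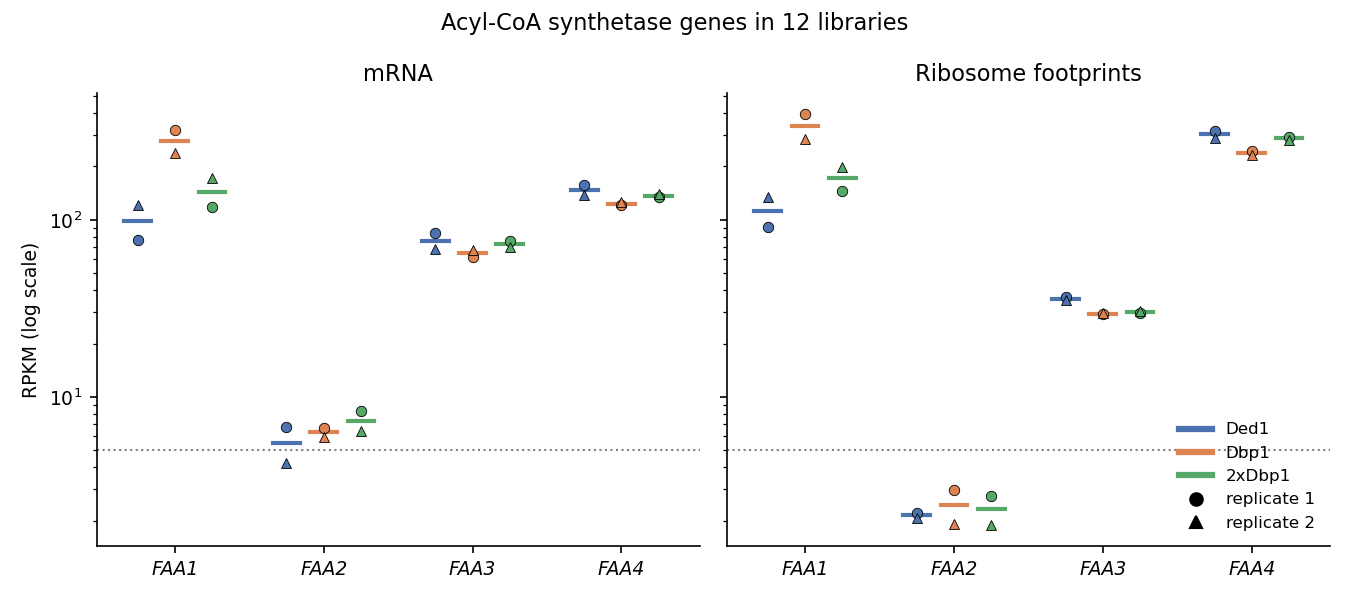
RPKM of each gene on a log axis in the 6 mRNA libraries (left) and the 6 footprint libraries (right), with points for libraries and colours for genotypes; the dotted line marks the 5 RPKM minimum. FAA1 in Dbp1, at 322.5 and 237.8 RPKM in mRNA, stands above the other 4 libraries, whereas the points of FAA3 and FAA4 lie close together and FAA2 sits near or under the line.

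In the order of mRNA levels, FAA4 came first in both Ded1 libraries, at 148.1 ± 13.3 RPKM, followed by FAA1, FAA3 at 76.4 ± 11.7 and FAA2 at 5.49 ± 1.79 RPKM (SD, n = 2). FAA1 and FAA3 did not separate there, since the lower FAA1 library, at 77.3 RPKM, lay between the FAA3 libraries. In Dbp1 the order was FAA1, FAA4 at 123.6 ± 2.91, FAA3 at 64.7 ± 4.44 and FAA2 at 6.29 ± 0.530 RPKM, with no overlap between neighbours. In 2xDbp1, FAA1 and FAA4 (137.0 ± 3.46 RPKM) overlapped, and FAA3 at 72.9 ± 3.78 and FAA2 at 7.33 ± 1.33 RPKM followed. RPKM is scaled to gene length, so these levels can be set side by side, although differences in mappability between genes were not assessed.

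The balance between FAA1 and FAA4, whose proteins share most of the activation of imported fatty acids, stood furthest toward FAA1 in Dbp1. The FAA1 to FAA4 ratio in mRNA was 0.491 and 0.870 in Ded1, 2.65 and 1.89 in Dbp1, and 0.874 and 1.23 in 2xDbp1. In footprints it was 0.286 and 0.462, 1.61 and 1.23, and 0.495 and 0.697 in the same order. The 2 Dbp1 libraries were the highest in both library types, and the 2xDbp1 libraries lay above both Ded1 libraries, in mRNA by a margin of 0.874 against 0.870. FAA1 exceeded FAA4 in footprints in both Dbp1 libraries and in none of the other 4. FAA1 values of the contrast that chose the family enter this ratio, so it was not tested.

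Summed over the family, the 4 mRNAs came to 326.2 and 331.7 RPKM in Ded1, 512.3 and 437.2 in Dbp1, and 335.9 and 387.4 in 2xDbp1. FAA1 supplied 23.7% and 36.4% of that sum in Ded1, 63.0% and 54.4% in Dbp1, and 34.98% and 44.2% in 2xDbp1. The corresponding FAA4 shares were 48.3% and 41.8%, 23.7% and 28.7%, and 40.04% and 36.0%. In footprints, the measure closest to protein output, FAA4 held the larger share in Ded1 (71.0% and 62.9%) and in 2xDbp1 (62.3% and 55.2%). In Dbp1 it held 36.5% and 42.3% of the footprints, and FAA1 held 58.7% and 51.9%.

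**Figure D2:**
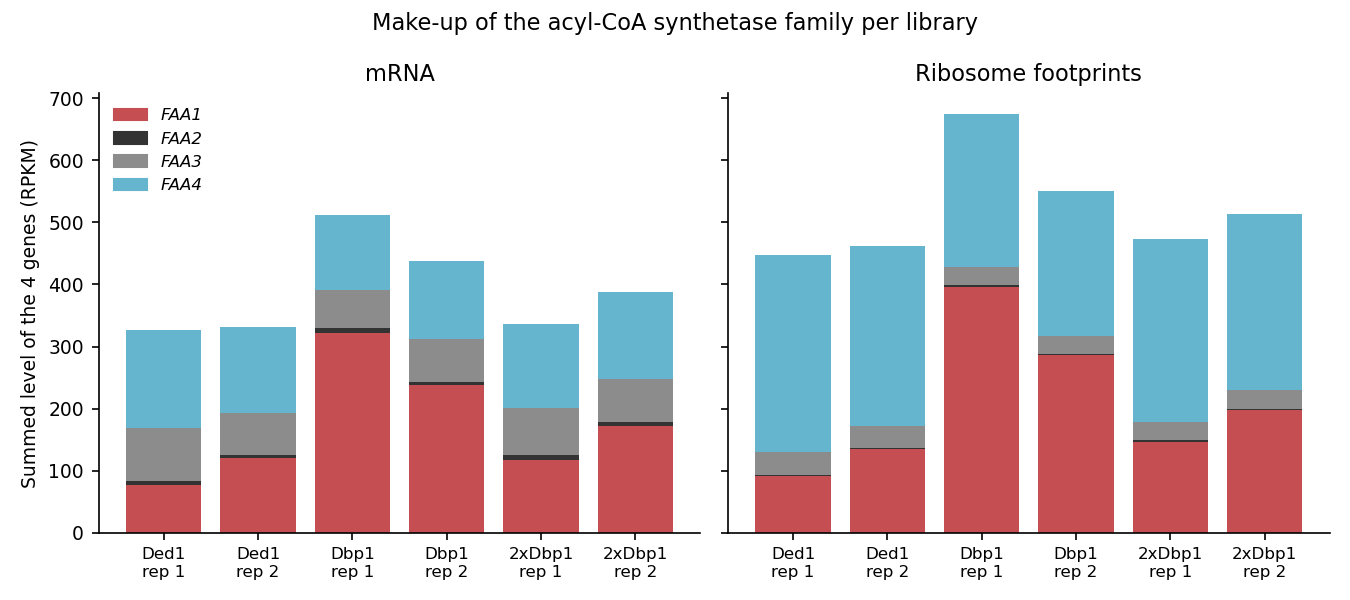
Stacked bars of the summed RPKM of the 4 genes in each library, mRNA left and footprints right, starting at 0. The FAA1 segment makes up 63.0% and 54.4% of the mRNA bars of Dbp1 and 23.7% and 36.4% of those of Ded1, while the FAA4 and FAA3 segments keep similar heights.

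Footprints per mRNA, the ratio of footprint to mRNA RPKM in libraries of the same genotype and replicate number, separated the members more clearly than the genotypes. This ratio was not used to choose the family. For FAA4 it was 2.02 and 2.10 in Ded1, 2.03 and 1.85 in Dbp1, and 2.19 and 2.03 in 2xDbp1. For FAA1 it was 1.18 and 1.11, 1.23 and 1.201, and 1.24 and 1.15. Both members lay above the all-gene median in all 6 samples, which ranged from 0.640 to 0.674 over 4785 genes.

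FAA3 and FAA2 lay below that median in all 6 samples. The ratio for FAA3 was 0.430 and 0.516 in Ded1, 0.476 and 0.436 in Dbp1, and 0.396 and 0.437 in 2xDbp1. For FAA2, whose counts are low, it was 0.329 and 0.490, 0.447 and 0.324, and 0.332 and 0.295. Among all genes in each sample, FAA4 stood at percentiles 91.2 to 93.6, FAA1 at 75.4 to 80.7, FAA3 at 22.2 to 33.6 and FAA2 at 9.32 to 30.4. FAA2 ranked below FAA3 in each sample.

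**Figure D3:**
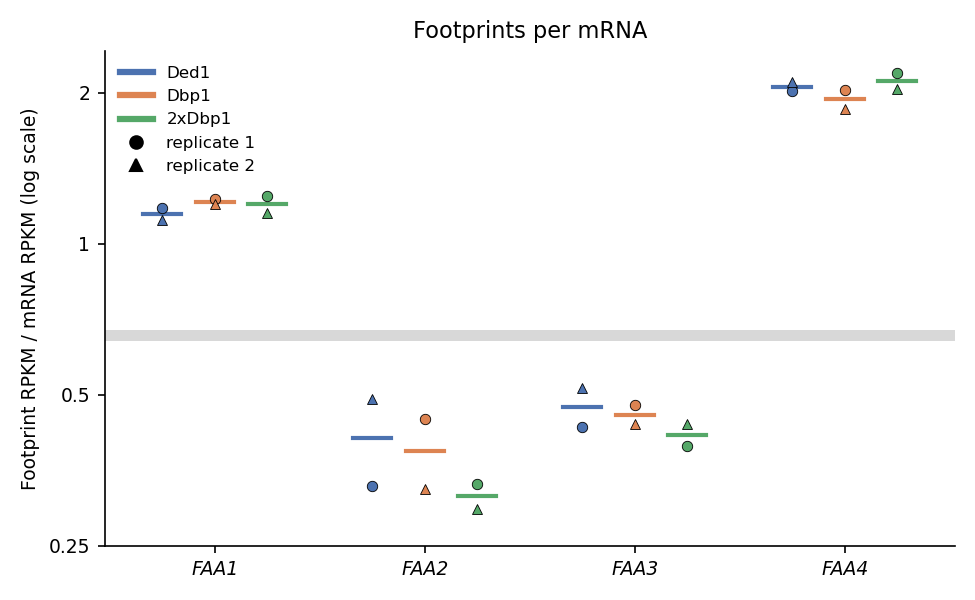
Footprint RPKM divided by mRNA RPKM on a log axis for the 4 genes, 1 point per sample and coloured by genotype. FAA4 lies near 2, FAA1 between 1.11 and 1.24, and FAA3 and FAA2 near or below 0.5.

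The order FAA4, FAA1, FAA3, FAA2 held in 6 of 6 samples. FAA4 exceeded FAA1 by 1.72-fold, FAA1 exceeded FAA3 by 2.65-fold, and FAA3 exceeded FAA2 by 1.23-fold, as geometric means over samples. All 6 pairs of members were compared by an exact sign-flip permutation test on the log ratio (2-sided, 6 samples), and each gave p = 0.03125, which is the smallest p that 6 samples allow and is also the value adjusted over the 6 pairs. The 6 samples come from 3 genotypes, and the test treats replicates of a genotype as independent. This p is reached whenever 1 member is higher in every sample, so it does not reflect the size of a difference. For FAA3 and FAA2 the ratios were 0.516 and 0.490 in the second Ded1 sample. FAA2 rests on 42 to 69 footprint reads per library. Because sequence composition, fragment size and ligation differ between genes, a ratio compared between genes is a relative measure. A bias of this kind could recur in every sample and give the same p, so the test cannot separate it from translation. The pairs with FAA1 use the libraries whose FAA1 level chose the family, although the ratio itself did not enter the choice.

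The FAA1 ratio varied by 1.12-fold from lowest to highest sample, against 4.17-fold for its mRNA. Group means of the FAA1 ratio were 1.15 ± 0.0438 in Ded1, 1.21 ± 0.0176 in Dbp1 and 1.198 ± 0.0645 in 2xDbp1 (SD, n = 2 each). For FAA4 they were 2.06 ± 0.0585, 1.94 ± 0.122 and 2.11 ± 0.115. The FAA3 means were 0.473 ± 0.0605, 0.456 ± 0.0284 and 0.416 ± 0.0288. In each of these 3 genes the Ded1 samples overlapped the 2xDbp1 samples. Both FAA1 ratios in Dbp1 lay above both in Ded1, 1.201 at the lowest against 1.18 at the highest. The share of all genes with such a separation was not determined. In translational efficiency, 77.7% of genes had a lower difference in Dbp1 against Ded1 than FAA1.

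In the comparison that chose the family, Dbp1 against Ded1, the fitted log2 difference of FAA1 was +1.51 in mRNA and +1.60 in footprints, on the scale of log2(RPKM + 1). FAA1 held rank 24 of 5198 genes in mRNA and rank 33 of 4830 in footprints. FAA3 stood at -0.23 in mRNA and -0.27 in footprints, and FAA4 at -0.26 and -0.34. Without the first Ded1 library the mRNA values were -0.07 for FAA3 and -0.17 for FAA4, and without the second -0.38 and -0.35. FAA2 mRNA stood at +0.20, and at -0.09 without the second Ded1 library. In translational efficiency, the footprint difference minus the mRNA difference, FAA1 stood at +0.09, FAA3 at -0.04 and FAA4 at -0.09. The FAA3 value turned to +0.09 without the second Ded1 library and to +0.02 without the second Dbp1 library.

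Without one library at a time, the FAA1 mRNA difference ran from +1.19, without the first Ded1 library, to +1.83, without the second. In footprints the same 2 omissions gave +1.32 and +1.87. Genotypes did not overlap for 3 of the 4 genes in mRNA and for the 3 genes tested in footprints. FAA1 is in both counts, and the choice of the family favoured its separation. In all genes tested, libraries did not overlap for 51.6% in mRNA and 51.2% in footprints, and 1.52% and 3.31% passed an adjusted p under 0.05.

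The 2xDbp1 strain was compared with Ded1 to ask where the 4 genes stood at a higher DBP1 dose, and this comparison shares the Ded1 libraries with the one that chose the family. None of the values tested passed an adjusted p under 0.05 in limma with Benjamini-Hochberg adjustment: 0 of 3 passed for mRNA and 0 of 2 for footprints, FAA1 left aside, and 0 of 3 for translational efficiency. The shares of all genes that passed were 0.077%, 0.0621% and 0.0418%. At an unadjusted p under 0.05 there were 0, 1 and 0 members, the 1 being FAA3 in footprints, against 15.1%, 9.30% and 5.12% of all genes.

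FAA1 mRNA stood at +0.55 in 2xDbp1 against Ded1, with overlapping libraries. Without one library of either group, the difference ran from +0.23, without the first Ded1 library, to +0.87, without the second. Leaving out the first 2xDbp1 library gave +0.82 and leaving out the second +0.28. FAA1 footprints stood at +0.62, with both 2xDbp1 libraries above both Ded1 libraries. The same omissions gave +0.34, +0.89, +0.83 and +0.40 in footprints.

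FAA3 footprints differed by -0.23 (SE 0.0807, 95% interval -0.42 to -0.04, limma adjusted p = 0.472), and both 2xDbp1 libraries lay below both Ded1 libraries. FAA3 mRNA differed by -0.06 with an interval from -0.35 to 0.24, and by +0.10 without the first Ded1 library. FAA4 differed by -0.11 in mRNA (interval -0.34 to 0.12) and by -0.07 in footprints (-0.27 to 0.13), with overlapping libraries in both. Without the first Ded1 library these were -0.02 and -0.01, and without the second -0.20 and -0.13. FAA2 mRNA differed by +0.38 (interval -0.21 to 0.97), running from +0.09 to +0.67 without the second and the first Ded1 library. Its footprints, fitted without the minimum level, differed by +0.06 (-0.44 to 0.57). With FAA1 included, libraries did not overlap for 0 of 4 members in mRNA and 2 of 3 in footprints, FAA1 and FAA3. The shares of all genes tested were 52.2% and 44.7%.

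Set against Dbp1, the 2xDbp1 strain had lower FAA1 and slightly higher FAA3 and FAA4 values in its libraries, and no difference of FAA3 or FAA4 passed the test over all genes. This comparison shares the Dbp1 libraries that chose the family for their high FAA1, which favours a lower FAA1 in 2xDbp1 in advance. FAA1 stood at -0.96 in mRNA and -0.98 in footprints, given without a test. Libraries did not overlap in either. Without one library, FAA1 ran from -1.23 to -0.69 in mRNA, without the second and the first 2xDbp1 library, and from -1.21 to -0.75 in footprints, without the second and the first Dbp1 library.

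FAA4 footprints differed by +0.27 between 2xDbp1 and Dbp1 (SE 0.0844, 95% interval 0.07 to 0.47, limma adjusted p = 0.463), and FAA4 mRNA by +0.15 (-0.08 to 0.38). FAA3 differed by +0.17 in mRNA (-0.12 to 0.47) and by +0.04 in footprints (-0.15 to 0.23). FAA2 mRNA differed by +0.18 (-0.40 to 0.77), with overlapping libraries, and by +0.02 without the first 2xDbp1 library. Values called were 0 of 3, 0 of 2 and 0 of 3 in mRNA, footprints and translational efficiency, FAA1 levels left aside, against 0.0192%, 0% and 0% of all genes. At an unadjusted p under 0.05 there were 0, 1 and 0, the 1 being FAA4 footprints, against 7.77%, 9.07% and 3.59% of all genes. With FAA1 included, libraries did not overlap for 3 of 4 and 3 of 3, against 39.5% and 42.2% of all genes.

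In translational efficiency the FAA1 difference was +0.07 in 2xDbp1 against Ded1 (95% interval -0.85 to 0.98) and -0.02 against Dbp1 (-0.93 to 0.89). The FAA3 differences were -0.17 (-0.51 to 0.16) and -0.13 (-0.47 to 0.20). For FAA4 they were +0.04 (-0.23 to 0.31) and +0.12 (-0.15 to 0.40). The wide intervals of FAA1 come from treating libraries as unpaired, since its standard error was 0.41 in that fit and 0.0955 with samples paired by replicate number (limma adjusted p = 0.825 and 0.961 with the pairing). FAA2, fitted without the minimum level, stood at -0.32 (-1.06 to 0.43) and -0.24 (-0.98 to 0.51).

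**Figure D4:**
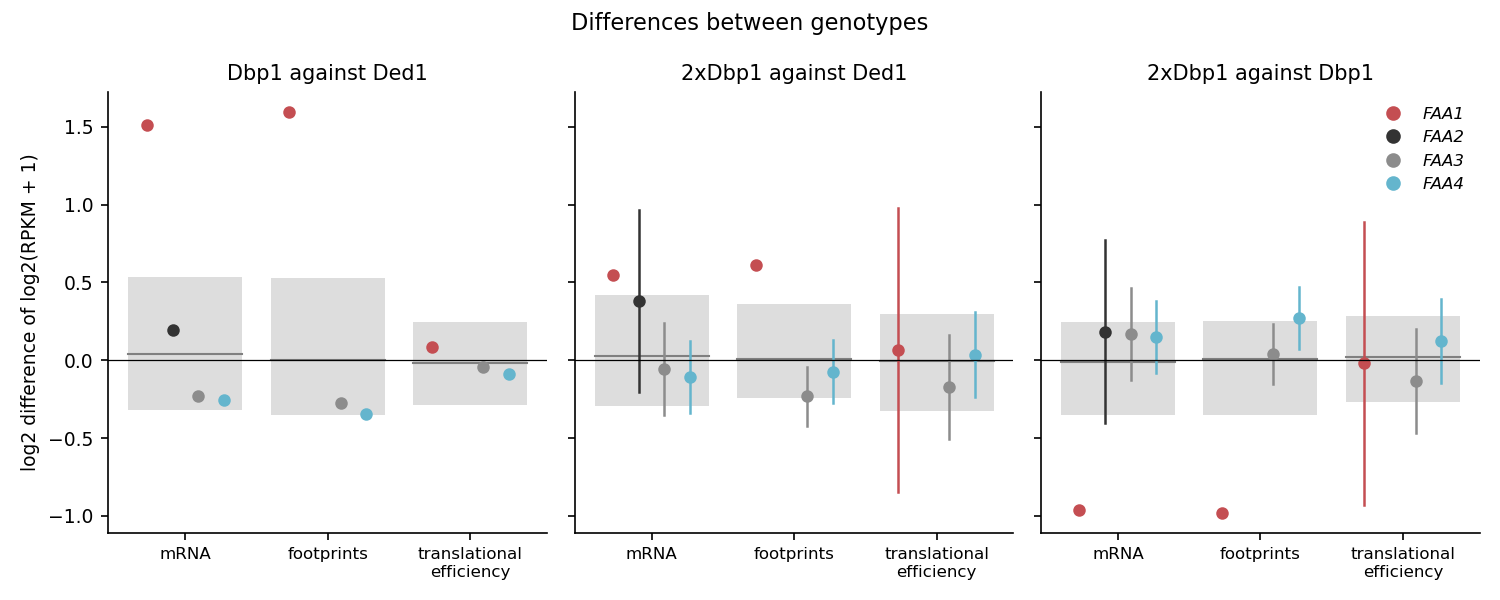
Fitted log2 differences of log2(RPKM + 1) for each gene in mRNA, footprints and translational efficiency, 1 panel per comparison; coloured bars are 95% intervals, left out where a value was not tested (Dbp1 against Ded1, and FAA1 in mRNA and footprints), and grey boxes span the 5th to the 95th percentile of all genes, with a line at the median. FAA1 stands at +1.51 and +1.60 in the first panel, +0.55 and +0.62 in the second and -0.96 and -0.98 in the third, and near 0 in translational efficiency.

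The wider lipid pathway was described through 7 lists of 63 genes, in which no gene passed the test in any of the 3 comparisons. Few genes of any kind passed: 1.52% of all mRNAs tested and 3.31% of footprint values in Dbp1 against Ded1. For 2xDbp1 these shares were 0.077% and 0.0621% against Ded1, and 0.0192% and 0% against Dbp1. At such shares, the absence of calls does not set the lists apart from all genes. In Dbp1 against Ded1, 58 of the 63 genes were tested in mRNA. Their median log2 difference was +0.08, with a range from -0.41 to +0.47, against +0.04 over all genes. In footprints 49 were tested, with a median of -0.04 against +0.00. At an unadjusted p under 0.05 there were 6 genes in mRNA and 4 in footprints, against 19.5% and 23.5% of all genes. In 2xDbp1 against Ded1 the medians were +0.11 and +0.01, with 10 and 3 genes at an unadjusted p under 0.05, against 15.1% and 9.30% of all genes. In 2xDbp1 against Dbp1 they were +0.03 and +0.03, with 4 and 3 genes, against 7.77% and 9.07%.

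The 12 genes of fatty acid synthesis and elongation had a median mRNA difference of -0.05 in Dbp1 against Ded1. OLE1, the Δ9 fatty acid desaturase, was 664.7 and 666.3 RPKM in Ded1 mRNA and 585.3 and 428.3 in Dbp1. Its footprints were 995.0 and 906.0 RPKM in Ded1 and 769.3 and 571.0 in Dbp1. Of all genes, 51.6% in mRNA and 51.2% in footprints did not overlap between Dbp1 and Ded1, in either direction. Both Dbp1 libraries of OLE1 were lower in each type, at -0.41 in mRNA (limma adjusted p = 0.198) and -0.52 in footprints (limma adjusted p = 0.0969). Without the first Dbp1 library its footprint difference was -0.73 with a limma adjusted p of 0.0422, the one call among the 63 genes under any setting tried. ELO1, a fatty acid elongase, stood at +0.46 in mRNA (limma adjusted p = 0.267).

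The other acyl-CoA synthetases did not pass either. The list holds FAT1, a fatty acid transporter with very long-chain synthetase activity, PCS60, a peroxisomal synthetase-like enzyme, and the acetyl-CoA synthetases ACS1 and ACS2. Their median mRNA difference was +0.12 in Dbp1 against Ded1 and +0.22 in 2xDbp1 against Ded1, over 4 genes. PCS60 stood at +0.40 (limma adjusted p = 0.373) in Dbp1. ACS1 stood at +0.61 in 2xDbp1 (limma adjusted p = 0.297).

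For peroxisomal β-oxidation, where Faa2 acts, 10 of 14 listed genes were tested in mRNA and 5 in footprints, with medians of +0.16 and +0.16 in Dbp1 against Ded1. MDH3, the peroxisomal malate dehydrogenase, stood at +0.18 in mRNA (limma adjusted p = 0.313), and PEX11, a peroxisomal membrane protein, at +0.29 in footprints (limma adjusted p = 0.241). The regulators of fatty acid and phospholipid genes had a median of -0.06 over 7 genes. INO2, an activator of phospholipid genes, stood at -0.39 in footprints (limma adjusted p = 0.107).

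In phosphatidic acid synthesis, which draws on acyl-CoA, the median was +0.10 in Dbp1 and +0.26 in 2xDbp1, each against Ded1, over 5 mRNAs. GPT2, a glycerol-3-phosphate acyltransferase, was 24.2 and 22.5 RPKM in Ded1 mRNA, 34.2 and 31.3 in Dbp1 and 32.9 and 33.8 in 2xDbp1. Both Dbp1-bearing strains lay above Ded1 without overlap, at +0.47 (limma adjusted p = 0.0793) and +0.50 (limma adjusted p = 0.178). In mRNA, libraries did not overlap in either direction for 51.6% and 52.2% of all genes in these comparisons. The 12 genes of neutral lipid storage and lipolysis had a median of +0.10, and TGL1, a steryl ester hydrolase, stood at +0.31 (limma adjusted p = 0.217). The 8 protein acylation genes had a median of +0.13, and SHR5, a subunit of the Ras palmitoyltransferase, stood at +0.33 (limma adjusted p = 0.203).

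A list of 20 general stress genes stood higher in Dbp1, where FAA1 was also high. The list was drawn up with earlier results of these data known, so its counts and p-values are a description. In Dbp1 against Ded1, 10 of the 20 rose in mRNA, none fell and 10 did not pass, with a median of +1.13. In footprints 15 of 18 rose, none fell and 3 did not pass, with a median of +1.80. Of all genes tested, 1.29% rose in mRNA and 2.42% in footprints. The list mean of log2(RPKM + 1) in mRNA was 4.42 and 4.43 in Ded1, 5.998 and 5.50 in Dbp1, and 4.97 and 5.05 in 2xDbp1. Among its members, PGM2, a phosphoglucomutase, stood at +1.41 (limma adjusted p = 0.00728) and DCS2, a stress-induced regulator of mRNA decapping, at +1.99 (limma adjusted p = 0.0104). The part of these genes in the FAA1 values was not tested.

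The count of 10 stress mRNAs depended on single libraries. It was 0 without the first Ded1 library, 4 without the second, 3 without the first Dbp1 library, 12 without the second, and 2 without either 2xDbp1 library. In footprints the count was 5 without the first Ded1 library. In 2xDbp1 against Ded1 none of the list passed, with medians of +0.53 in mRNA and +0.76 in footprints and 11 and 12 genes at an unadjusted p under 0.05, where the shares of all genes were 15.1% and 9.30%. Without either Dbp1 library, which that comparison does not use but the spread does, 2 mRNAs and 7 footprint values passed. In 2xDbp1 against Dbp1 none passed, with medians of -0.63 and -0.85 and 16 genes in each at an unadjusted p under 0.05, where the shares of all genes were 7.77% and 9.07%. Between the Ded1 replicates the list mean was close, at 4.42 and 4.43. The summed mRNA of the list was 5759 and 8345 RPKM there, higher in the second replicate as FAA1 was. It was also higher in the second replicate of 2xDbp1, at 8175 and 9851 RPKM. In Dbp1 the mRNA sums were nearly equal, at 13270.3 and 13377.5 RPKM, and FAA1 was higher in the first replicate. The list mean in Dbp1 mRNA was also higher in the first replicate, at 5.998 and 5.50. In Dbp1 footprints the list mean was 6.69 and 6.20 and the sum 10285 and 9823 RPKM, again higher in the first replicate.

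Glucose-repressed genes were listed as markers of a culture nearing glucose exhaustion. In Dbp1 against Ded1 none of the 6 tested in mRNA or the 4 in footprints passed, with 2 and 3 at an unadjusted p under 0.05, against 19.5% and 23.5% of all genes, and medians of +0.41 and +0.65. CYB2, the lactate dehydrogenase of mitochondria, stood at +0.73 in mRNA (limma adjusted p = 0.0954). ICL1, the isocitrate lyase of the glyoxylate cycle, was 40.3 and 10.9 RPKM in the mRNA of Dbp1 replicates 1 and 2. The list mean in mRNA was 3.85 and 3.75 in Ded1, 4.51 and 3.91 in Dbp1, and 3.92 and 4.08 in 2xDbp1, so the first Dbp1 library, which had the highest FAA1, also had the highest list mean. The part of these genes in the FAA1 values was not tested.

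**Figure D5:**
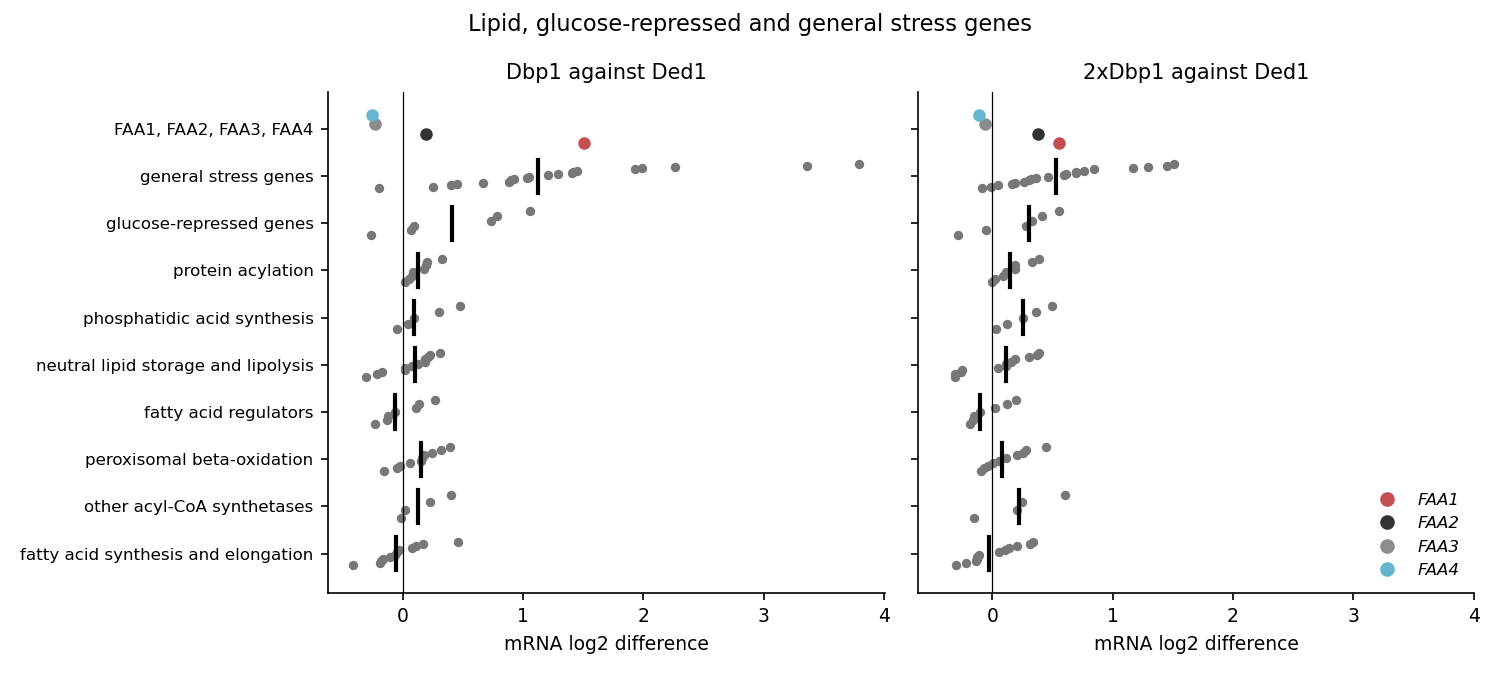
mRNA log2 differences of single genes (points) by list for Dbp1 against Ded1 and 2xDbp1 against Ded1, with the 4 acyl-CoA synthetase genes in a row of their own. The lipid genes lie between -0.41 and +0.47 in the first panel, the general stress genes have a median of +1.13, and FAA1 stands at +1.51 apart from FAA2, FAA3 and FAA4.

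The genes whose levels followed FAA1 most closely across all 12 libraries were CYC7, GCY1, GAD1, NCE103 and GSY2. Likeness was the root mean square difference of log2(RPKM + 1), centred within library type, over 4199 genes with at least 10 RPKM in both types, and it was 0.183, 0.188, 0.213, 0.219 and 0.228 for the 5 genes. The median gene differed from FAA1 by 0.691. CYC7, the minor isoform of cytochrome c, was 69.3 and 126.9 RPKM in Ded1 mRNA, 278.5 and 245.4 in Dbp1, and 128.2 and 207.3 in 2xDbp1. NCE103, the carbonic anhydrase, was 573.0 and 1304 RPKM in Ded1, 3095 and 1972 in Dbp1, and 1223 and 1723 in 2xDbp1.

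Both genes shared with FAA1 the higher second replicate in Ded1 and 2xDbp1 and the higher first replicate in Dbp1. They were picked for likeness to FAA1 over these same 12 libraries, so the shared replicate order is part of that likeness. GCY1 encodes a glycerol dehydrogenase, GAD1 a glutamate decarboxylase, and GSY2, which is also on the general stress list, a glycogen synthase. For FAA3 the nearest genes were PCL2, EMG1 and RPP1, at 0.0624 to 0.0661. Those nearest to FAA4 were HGH1, POL5 and LIA1, at 0.0467 to 0.0495, and those nearest to FAA2 were MSP1, MRPS35 and IRC4, at 0.104 to 0.118. The members' own root mean square deviations over the libraries were 0.691 for FAA1, 0.216 for FAA2, 0.132 for FAA3 and 0.138 for FAA4. The value of FAA2 is damped by the added 1 RPKM, since its mRNA spanned 1.96-fold, at percentile 92.9 of all genes.

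The genes beside FAA1 on its chromosome differed less from Ded1 than FAA1 did, and their means had the same order of genotypes. COT1, a vacuolar metal transporter, averaged 27.5 RPKM in Ded1 mRNA, 50.6 in Dbp1 and 38.1 in 2xDbp1, a difference of +0.82 in Dbp1 against Ded1 (limma adjusted p = 0.148). HSH49, a splicing factor, averaged 175.4, 202.1 and 196.8 RPKM, a difference of +0.21 (limma adjusted p = 0.467). Neither passed. FAA2 overlaps BUD25 by 160 bp, and BUD25 was listed at 0 in all 12 libraries, so reads in the overlap may have been assigned to FAA2 or left out. FAA1 and FAA4 are similar in sequence, and the sources used here do not say how reads matching more than 1 gene were handled.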

How the data were processed

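Ribosome footprints (28 to 31 nt) and poly(A) mRNA fragments (50 nt) were measured in 6 libraries each, per the labels' protocols. CASAVA, bcl2fastq 2.17 and Bowtie2 are named in the submitters' processing notes; which step each ran, the build, gene models and read counting were not given in the sources used here. Each library has 1 column of deposited RPKM; the unit was read from the values, since RPKM times (coding length minus 60 nt) times an inferred depth was whole within 0.02 reads for 83.9% to 87.8% of values up to 200 reads. A count test was not run, because RPKM values are not counts. The coding lengths came from the R64 gene table, which also gave names for 5637 of 6159 genes and neighbours; 522 genes kept their IDs. No coordinates are printed.

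The members and all gene lists were chosen with earlier results of these data known. Tests of FAA1 levels, though planned, are not reported, because they share libraries with the comparison that chose the family. Here limma 3.58.1 (R 4.3.3, trended empirical Bayes) was run on log2(RPKM + 1) in the 6 mRNA and the 6 footprint libraries, for genes with a mean of at least 5 RPKM. Translational efficiency was the interaction over 12 libraries, taken as unpaired. This widens the standard error of genes whose footprint and mRNA deviations go together, as for FAA1. Adjustment was by Benjamini-Hochberg over 5198, 4830 and 4785 genes, and calls were made at 0.05. The fits were tested on simulated data. Other work used Python 3.11.15, pandas 2.3.3, numpy 2.4.6, scipy 1.17.1 and matplotlib 3.10.9.

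Footprint and mRNA libraries of the same number were paired for ratios: their deviations from the group means correlated at 0.533 in Ded1, 0.657 in Dbp1 and 0.417 in 2xDbp1 over 4785 genes. Genes named from a list are up to 4 past the threshold, otherwise up to 2 with the lowest p; the nearest genes are 5 for FAA1 and 3 for each other member. Alternatives were the pseudocount, the filter, rescaled libraries, a replicate block, fits of 2 genotypes, and leaving out each library.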

Additional observations from a re-analysis of the deposited data

How the results depend on the processing

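Under 206 alternative fits of the 16 tested values of the 4 genes, none passed an adjusted p under 0.05; the lowest was 0.333, for FAA4 footprints in 2xDbp1 against Dbp1 with a replicate block. The direction turned for 3 tested values that had not passed, and for 2 untested ones in Dbp1 against Ded1, FAA2 mRNA and FAA3 translational efficiency, given with their values in the text. With 1 library left out, FAA1 translational efficiency in 2xDbp1 against Dbp1 ran from -0.075 to +0.034, without the first and the second 2xDbp1 library. FAA3 mRNA in 2xDbp1 against Ded1 ran from -0.21 to +0.10, without the second and the first Ded1 library. FAA4 translational efficiency in 2xDbp1 against Ded1 ran from -0.019 to +0.092, without the first and the second 2xDbp1 library. FAA3 footprints in Dbp1 against Ded1 were -0.24 with a pseudocount of 5, against -0.27. In Dbp1 against Ded1, 79 genes were called in mRNA, and 2 to 204 with 1 library left out, 2 being without the first Ded1 library; with only these genotypes fitted there were 8. In footprints the 160 calls became 96 without the filter, 44 with these genotypes only, and 22 to 244 with 1 library left out. In 2xDbp1 against Ded1, 4 and 3 genes were called, and 26 and 12 with these genotypes only; in mRNA 10 were called at a minimum of 20 RPKM and 8 after rescaling. In 2xDbp1 against Dbp1 the counts of 1 and 0 stayed at or below 6. The number of stress mRNAs called in Dbp1 against Ded1, 10, was 6 at a minimum of 20 RPKM and 2 with these genotypes only. The cause of these changes was not tested.

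Replicate numbers were not taken to pair the genotypes, since not every pair correlated above 0.1: deviations of same-numbered libraries correlated at 0.175 in mRNA and 0.181 in footprints between Ded1 and Dbp1, 0.198 and 0.344 between Ded1 and 2xDbp1, and -0.072 and -0.071 between Dbp1 and 2xDbp1. With the number as a replicate block, the adjusted p in 2xDbp1 was 0.446 for FAA3 footprints against Ded1 and 0.333 for FAA4 footprints against Dbp1. For translational efficiency the block pairs footprints with mRNA, and the adjusted p of FAA1 was 0.825 and 0.961. The block gave 116 mRNA and 143 footprint calls in Dbp1 against Ded1 and 7 and 5 in 2xDbp1 against Ded1, and changed no call of a member. Precision is limited by 2 libraries per group, and for FAA2 footprints also by 42 to 69 reads.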
